A study of Mus musculus with 6 samples.

Results

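Genes of the Wnt pathway were examined in mouse lung endothelial cells that overexpress the adhesion molecule L1CAM. The set was a list of 38 named genes, made up of Wnt ligands, Frizzled receptors and their co-receptors, cytoplasmic and nuclear effectors and inhibitors. It was chosen by name and pathway role, with earlier results of these data known. A total of 37 had a probe set annotated with exactly 1 gene symbol, out of 19938 such genes in all. The remaining one, Tcf7, had no entry in the probe annotation used and was not analysed here. RNA was hybridised to 6 Affymetrix arrays. The cells came from lung endothelium of C57BL/6 background, and each line had been stably transfected with the plasmid pcDNA3.1/Hygro(-). In the 3 control arrays the plasmid was empty, and in the 3 L1CAM arrays it carried the full-length mouse L1CAM sequence. All cultures grew for 4 days, to confluence, on gelatin in medium with 20 percent serum and endothelial growth supplement. The labels name 1 transfectant per group and do not say whether it was a pool or a clone, so a difference between the groups cannot be told apart from a difference between these transfectants. They describe the replicates as biological ones.

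Wnt proteins are secreted lipid-modified ligands. They bind Frizzled receptors together with the co-receptors LRP5 and LRP6, and the signal passes through Dishevelled to a complex of Axin, APC and kinases that would otherwise mark beta-catenin for destruction. Spared beta-catenin enters the nucleus and acts with factors of the TCF/LEF family. Other Wnt proteins, of which WNT5A is the best known, act through ROR and RYK receptors on cell polarity and calcium without beta-catenin. In endothelium the pathway is known for its part in the growth of retinal and brain vessels, where FZD4 with LRP5 is the receptor for Norrin.

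In bulk RNA, fewer cells of a type and less RNA per cell cannot be told apart. In L1CAM cells 9 of the 37 members passed the limma test, 7 lower and 2 higher. Those that fell were the ligand Wnt5a, the receptors Fzd2 and Fzd7, both co-receptors Lrp5 and Lrp6, and the nuclear factors Tcf7l1 and Tcf7l2. Those that rose were the receptor Fzd4 and, close to background, the secreted Wnt antagonist Notum. The largest measured difference among them was that of Wnt5a, whose mean was 2.04-fold lower, a fold that is not exact because its L1CAM arrays lay below the array medians. The members that lay above the medians on all arrays differed 1.25-fold (Fzd2) to 1.63-fold (Fzd7). Beta-catenin itself, Ctnnb1, was not called.

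Over all genes tested the same rule called 15.0% in either direction, 6.85% as higher and 8.19% as lower. The members' share was 24.3% in either direction, and their median difference was -0.03 against 0.02 for all genes. The arrays of the groups did not overlap in 12 members, or 32.4%, against 34.6% of all genes. Of the members, 26 lay above the median of all probe sets on every array (medians 6.55 to 6.58) and 9 on no array. Among the 11409 genes above that median on at least 3 arrays, 30.0% were called. This filter kept 27 members, Wnt5a among them through its control arrays alone, and no support is drawn from the count among them. The values are RMA expression values on the log2 scale, the array values below are given in the order of replicates 1, 2 and 3, and a difference is L1CAM minus control. SE is the moderated standard error, n is 3 arrays per group, and adjusted p is limma's over all 19938 genes.

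**Figure D1:**
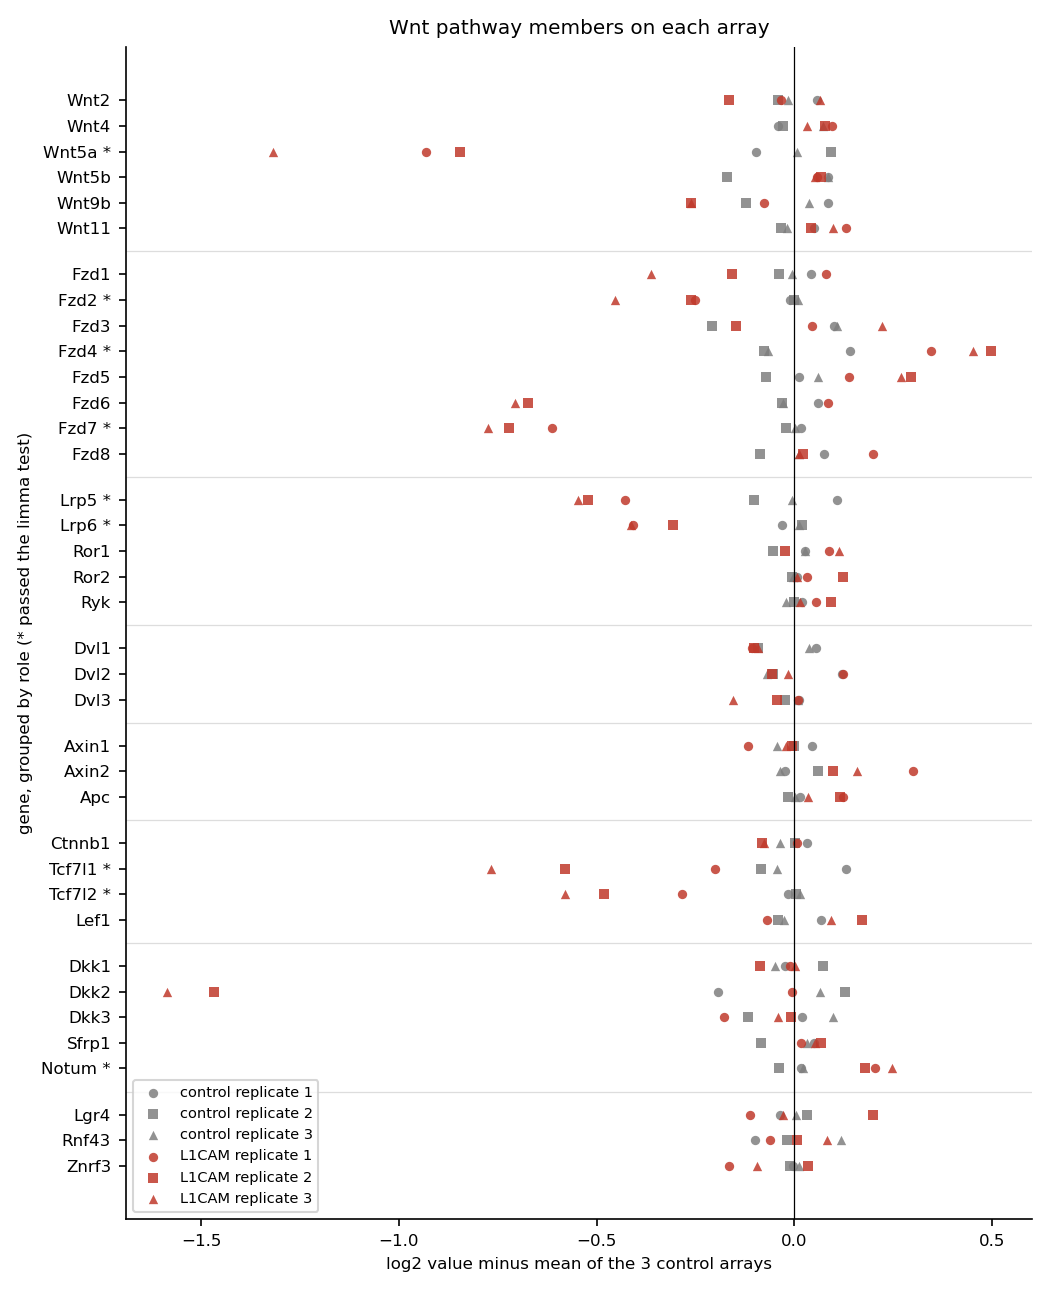
Each row is a Wnt pathway member, grouped by role, and each point is an array, plotted as its log2 value minus the mean of the 3 control arrays (grey for control, red for L1CAM; circle, square and triangle for replicates 1, 2 and 3). Asterisks mark the 9 members that passed the limma test, and Dkk2 and Fzd6 show L1CAM replicate 1 among the control arrays and replicates 2 and 3 far below them.

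L1cam, the transfected gene, read 6.50, 6.77 and 7.31 on the control arrays and 10.49, 10.60 and 10.73 on the L1CAM arrays. The 12 endothelial markers examined lay above the array median on all arrays. Cdh5, the endothelial cadherin, measured 13.12 ± 0.02 and 13.04 ± 0.02 in control and L1CAM cells, and Pecam1 12.65 ± 0.02 and 12.58 ± 0.02 (SD, n = 3). Neither passed the test, although the groups of each did not overlap. Of the 12 markers, 9 did not overlap between the groups and 2 passed. Robo4, a guidance receptor of endothelium, rose by 0.44 (adjusted p = 0.0112) and was called in 5 of the 6 fits with an array left out, all but that without control replicate 2. Cldn5, the endothelial tight junction claudin, fell by 0.22 (adjusted p = 0.0446) and was called in 1 of these fits, that without L1CAM replicate 1. The arrays of Cldn5 lay between 6.79 and 7.13 and those of Vwf between 6.82 and 6.88, not far above the array medians. Robo4, Cldn5 and Vwf were named after their values were seen. Among 42 markers of other cell types none passed the test. Those above the array median on all arrays were Col1a1, Col1a2, Col3a1, Pdgfra and Thy1 of fibroblasts, Notch3 and Myh11 of mural cells, Krt8, Sftpb and Ager of epithelium, Cd68 and Lyz2 of macrophages, and Sox10 of neural cells. L1CAM replicate 1 stood apart from the other L1CAM arrays, with correlations of 0.9948 and 0.9951 to them across genes against 0.9986 between replicates 2 and 3. The 19 cell cycle genes measured averaged -0.455, -1.66 and -1.575 from the control mean on L1CAM replicates 1, 2 and 3, with control arrays from -0.24 to 0.16, and 17 of them fell. Their list mean on the log2 scale was 10.07 to 10.47 on the control arrays and 8.66 to 9.86 on the L1CAM arrays. The part of these differences in the results on the Wnt pathway was not tested.

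Among the 6 ligands, Wnt5a alone passed the test. It read 7.11, 7.30 and 7.22 in control cells and 6.28, 6.36 and 5.89 in L1CAM cells. All control arrays lay above all L1CAM arrays, and L1CAM replicate 3 was the lowest. The mean fell from 7.21 ± 0.09 to 6.18 ± 0.25 (SD, n = 3), a difference of -1.03 (SE 0.12, adjusted p = 0.00248). The L1CAM arrays lay below the array medians, so its signal there may be mostly background and the fold is not exact. The call held whichever array was left out, with adjusted p between 0.000623 and 0.0188.

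Wnt9b read 8.30, 8.09 and 8.25 in control and 8.13, 7.95 and 7.95 in L1CAM cells. Its groups overlapped, since control replicate 2 lay below L1CAM replicate 1, and the difference of -0.20 did not pass (adjusted p = 0.143). Without L1CAM replicate 1 it was -0.26 and passed (adjusted p = 0.0345). Wnt11, a ligand of the polarity branch, had a difference of 0.09 (95% confidence interval -0.04 to 0.22), and its 6 arrays lay between 6.47 and 6.63, at the array median. Wnt5b, the close relative of Wnt5a, had a difference of 0.06 (-0.12 to 0.24), and Wnt4 of 0.07 (-0.06 to 0.20). A second probe set of Wnt4 gave a difference of 0.15. Wnt2, a ligand of lung development, lay between 5.68 and 5.91 on all arrays, below their medians, with a difference of -0.04 (-0.21 to 0.12).

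Frizzled receptors moved in both directions. They are membrane proteins with a Wnt-binding cysteine-rich domain outside the cell, and by sequence they fall into the subgroups Fzd1, Fzd2 and Fzd7, Fzd3 and Fzd6, Fzd5 and Fzd8, and Fzd4, Fzd9 and Fzd10. Of the 8 members, 2 fell and 1 rose. Fzd7 read 9.73, 9.69 and 9.71 in control cells and 9.10, 8.99 and 8.93 in L1CAM cells. The control arrays lay within 0.04 of each other and far from every L1CAM array. Its mean fell from 9.71 ± 0.02 to 9.00 ± 0.08 (SD, n = 3), a difference of -0.70 (SE 0.06) or 1.63-fold lower, with the smallest adjusted p of the members (0.000726). That call held whichever array was left out.

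Fzd2, of the same subgroup, read 7.45, 7.46 and 7.47 in control cells and 7.21, 7.20 and 7.01 in L1CAM cells. The groups were apart by a smaller gap, and L1CAM replicate 3 was the lowest. The difference was -0.32 (SE 0.07, adjusted p = 0.0202). The call was lost without control replicate 1 (adjusted p = 0.0589), control replicate 2 (0.0804), control replicate 3 (0.0811) or L1CAM replicate 3 (0.0582). Fzd1, the third of that subgroup, read 7.93, 7.85 and 7.88 in control and 7.97, 7.73 and 7.53 in L1CAM cells. L1CAM replicate 1 was the highest of all 6 arrays and replicate 3 the lowest, and the difference of -0.15 did not pass (adjusted p = 0.426). Without L1CAM replicate 1 it was -0.26, with an adjusted p of 0.036.

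Fzd4, the Norrin receptor of endothelial cells, was the only Frizzled member that rose. It read 11.09, 10.87 and 10.88 in control cells and 11.29, 11.45 and 11.40 in L1CAM cells. The L1CAM arrays lay above all control arrays, with control replicate 1 nearest to them. The mean went from 10.95 ± 0.12 to 11.38 ± 0.08 (SD, n = 3), a difference of 0.43 (SE 0.08, adjusted p = 0.0115). The call was lost without control replicate 2 (adjusted p = 0.0584), control replicate 3 (0.0587) or L1CAM replicate 3 (0.0501).

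Fzd5 read 7.68, 7.59 and 7.72 in control and 7.80, 7.96 and 7.93 in L1CAM cells, without overlap. Its difference of 0.23 just missed the threshold (adjusted p = 0.0514). It was called with array medians set equal (adjusted p = 0.0453), with a further quantile normalization (0.0397), with dim probe sets left out (0.0331), with array weights (0.0101) and without L1CAM replicate 1 (0.0125). Fzd8, its relative, had a difference of 0.08 (95% confidence interval -0.09 to 0.25). Fzd3 lay between 4.23 and 4.66 on all arrays, under the arrays' lower quartiles (5.01 to 5.04), with a difference of 0.04 (-0.23 to 0.31).

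Fzd6, a receptor best known from hair and tissue polarity, split the L1CAM arrays. It read 10.82, 10.73 and 10.73 in control cells and 10.84, 10.09 and 10.05 in L1CAM cells. L1CAM replicate 1 was the highest of the 6 arrays and the other L1CAM arrays were the lowest. The difference of -0.43 (SE 0.19) did not pass (adjusted p = 0.189). Without L1CAM replicate 1 it was -0.69 and passed (adjusted p = 0.000117).

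The promoters of Fzd7 and Fzd4 are shown because these receptors moved in opposite directions. The sequences are the 250 bases before the start of each gene from RefSeq (GRCm38.p6), both on the plus strand, 5′ to 3′, at chr1:59481897-59482146 for Fzd7 and chr7:89404116-89404365 for Fzd4. Capitals mark GC boxes, the letters GGGCGG or their reverse complement CCGCCC, of which neighbouring matches can overlap.
Fzd7: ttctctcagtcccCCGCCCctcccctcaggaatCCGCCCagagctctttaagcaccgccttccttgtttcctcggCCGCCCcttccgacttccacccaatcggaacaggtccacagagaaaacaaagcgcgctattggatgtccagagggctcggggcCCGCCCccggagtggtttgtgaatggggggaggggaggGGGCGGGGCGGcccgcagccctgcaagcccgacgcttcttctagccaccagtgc
Fzd4: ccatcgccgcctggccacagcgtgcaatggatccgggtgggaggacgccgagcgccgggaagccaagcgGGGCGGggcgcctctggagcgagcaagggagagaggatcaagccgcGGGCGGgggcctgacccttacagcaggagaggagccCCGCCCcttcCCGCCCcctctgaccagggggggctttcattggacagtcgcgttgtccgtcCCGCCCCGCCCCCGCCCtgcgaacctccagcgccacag
The Fzd7 window holds 6 such matches and the Fzd4 window 7. Neither holds CTTTGA or its reverse complement TCAAAG, a form of the core letters bound by TCF/LEF factors. Other forms of that core were not counted. Such a form, CTTTGT, can be read in the Fzd7 window as its reverse complement ACAAAG.

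Both LRP co-receptors, the single-pass proteins that join Frizzled in the beta-catenin branch, fell. Lrp5 read 11.45, 11.24 and 11.34 in control cells and 10.91, 10.82 and 10.79 in L1CAM cells. Lrp6 read 10.34, 10.39 and 10.38 in control cells and 9.96, 10.06 and 9.96 in L1CAM cells. In each gene every L1CAM array lay below every control array, and L1CAM replicate 1 lay with the other L1CAM arrays. The difference was -0.50 (SE 0.07, adjusted p = 0.0048) for Lrp5, 1.41-fold lower. For Lrp6 it was -0.38 (SE 0.06, adjusted p = 0.00553), 1.30-fold lower. Both calls held whichever array was left out, with adjusted p up to 0.0291 for Lrp5 and 0.0344 for Lrp6.

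The 3 members that serve as receptors of the branch without beta-catenin were not called. Ryk, a receptor with an inactive kinase domain, had a difference of 0.05 (95% confidence interval -0.07 to 0.17). Ror2, the kinase-like receptor for WNT5A, also had a difference of 0.05 (-0.07 to 0.18). Ror1 lay between 5.31 and 5.47 on all arrays, below their medians, with 0.06 (-0.08 to 0.20). The intervals of Ryk and Ror2, which lay above the medians on all arrays, do not reach the differences measured for Lrp5 and Lrp6.

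The Dishevelled proteins, which carry the signal from the receptor into the cell, showed 0 calls among 3 genes. Dvl1 had a difference of -0.10 (95% confidence interval -0.24 to 0.04), Dvl2 of 0.02 (-0.16 to 0.19) and Dvl3 of -0.06 (-0.20 to 0.08). None was called under any of the 15 alternatives. With all arrays none had an unadjusted p under 0.05, and without control replicate 2 Dvl1 did (difference -0.15, unadjusted p = 0.0471 from limma, adjusted p = 0.211).

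Of the scaffold proteins of the destruction complex none passed the test. Axin1 had a difference of -0.05 (95% confidence interval -0.18 to 0.09). Apc, the tumour suppressor that binds beta-catenin, read 9.41, 9.38 and 9.40 in control and 9.52, 9.51 and 9.43 in L1CAM cells. Its groups did not overlap, by a gap of under 0.1, and the difference of 0.09 did not pass (adjusted p = 0.313). Axin2, which is also a widely used target gene of beta-catenin, read 6.74, 6.83 and 6.73 in control and 7.07, 6.86 and 6.93 in L1CAM cells. These groups did not overlap either, and L1CAM replicate 1 was the highest. The difference of 0.19 (SE 0.07) did not pass (adjusted p = 0.117) and was not called under any alternative, where the adjusted p lay at 0.0757 or above.

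Nuclear effectors showed falls of TCF factors and no call for beta-catenin. Ctnnb1 read 12.52, 12.49 and 12.45 in control and 12.50, 12.41 and 12.41 in L1CAM cells, with overlap. Its difference was -0.05 (95% confidence interval -0.18 to 0.08, adjusted p = 0.607). The array measures its RNA, while the pathway controls the protein, which was not measured.

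Tcf7l2, the TCF4 protein, a main partner of beta-catenin on DNA, read 10.59, 10.61 and 10.62 in control cells and 10.33, 10.13 and 10.03 in L1CAM cells. The control arrays lay within 0.04 of each other, and L1CAM replicate 1 lay between them and the other L1CAM arrays. The mean fell from 10.61 ± 0.02 to 10.16 ± 0.15 (SD, n = 3), a difference of -0.45 (SE 0.08, adjusted p = 0.0112). The call was lost without control replicate 2 (adjusted p = 0.0546) or control replicate 3 (0.0551), and the difference was -0.53 without L1CAM replicate 1 (0.000418).

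Tcf7l1, the TCF3 protein, known mainly as a repressor, read 10.15, 9.94 and 9.98 in control cells and 9.82, 9.44 and 9.25 in L1CAM cells. L1CAM replicate 1 lay close below the control arrays. The difference was -0.52 (SE 0.14), with an adjusted p of 0.0445. It was -0.67 without L1CAM replicate 1 (adjusted p = 0.000903), and the call was lost without any other array: control replicate 1 (0.135), control replicate 2 (0.108), control replicate 3 (0.118), L1CAM replicate 2 (0.137) or the third L1CAM array (0.126). Lef1, the lymphoid enhancer factor, lay between 6.24 and 6.48, below the array medians, with a difference of 0.07 (95% confidence interval -0.11 to 0.24).

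The promoters of Tcf7l1 and Tcf7l2 are shown because these factors fell together. They are again the 250 bases before the start from RefSeq (GRCm38.p6), at chr6:72789046-72789295 on the minus strand for Tcf7l1 and chr19:55741560-55741809 on the plus strand for Tcf7l2, 5′ to 3′, with GC boxes in capitals.
Tcf7l1: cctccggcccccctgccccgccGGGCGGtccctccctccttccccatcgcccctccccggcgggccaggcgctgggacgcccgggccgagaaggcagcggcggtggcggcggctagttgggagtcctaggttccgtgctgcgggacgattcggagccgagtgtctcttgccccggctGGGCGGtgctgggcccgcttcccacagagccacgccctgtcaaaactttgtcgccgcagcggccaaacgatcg
Tcf7l2: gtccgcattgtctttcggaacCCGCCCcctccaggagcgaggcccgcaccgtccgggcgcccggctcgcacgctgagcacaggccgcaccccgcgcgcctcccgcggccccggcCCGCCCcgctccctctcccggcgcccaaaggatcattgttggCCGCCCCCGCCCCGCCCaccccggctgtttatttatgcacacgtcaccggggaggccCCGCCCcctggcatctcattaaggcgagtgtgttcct
The window of Tcf7l1 holds 2 GC boxes and that of Tcf7l2 6. The table has another window for Tcf7l2, at chr19:55895071-55895320, with 0 GC boxes. Its GC content is 40.8%, against 72.8% in the window printed. None of the 3 windows holds CTTTGA or TCAAAG, the only form of the TCF/LEF core counted. The form CTTTGT can be read in the Tcf7l1 window and in the other window of Tcf7l2. The promoter table has windows for 25 of the 38 listed genes, 35 windows in all. GC boxes were found in 74.3% of these windows, against 32.7% of all 32851 windows of the table. The printed windows had a GC content of 65.2% (Fzd7) to 73.6% (Tcf7l1), against a median of 52.4% over all windows. The part of GC content in the share of GC boxes was not tested. CTTTGA or TCAAAG was found in 17.1% of the 35 windows, against 13.8% of all, in windows of Dkk1, Fzd1, Lef1, Ror1, Wnt11 and Wnt5b. None of these 6 genes passed the test with all arrays. Of the called members, Wnt5a, Lrp5, Lrp6, Fzd2 and Notum had no promoter window and could not be searched. No conclusion on the called members is drawn from this.

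**Figure D2:**
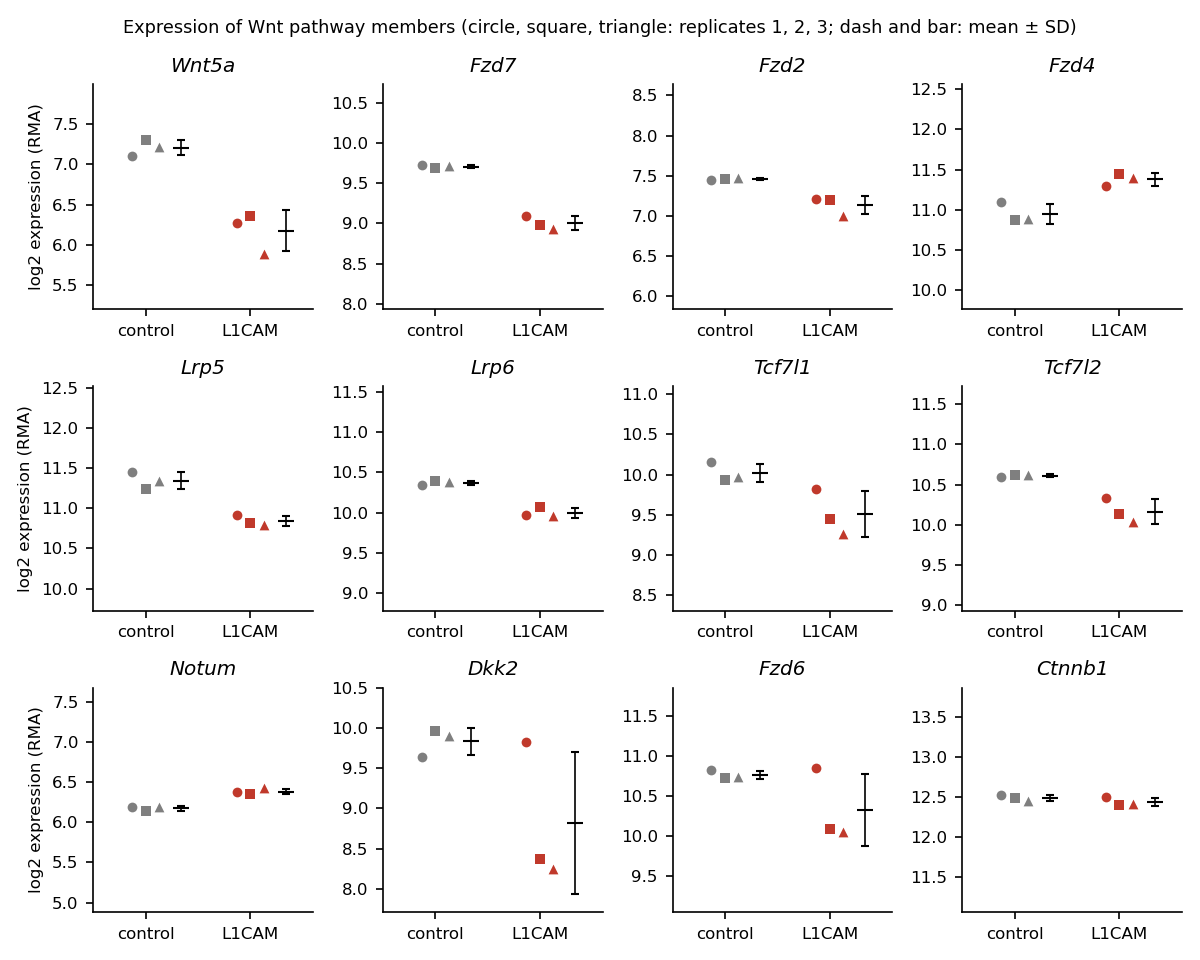
Each panel shows 1 gene, with its log2 expression on the vertical axis (same span in every panel), the 3 control and 3 L1CAM arrays as points, and the mean ± SD beside each group. Fzd7, Lrp5 and Lrp6 separate the groups by more than their spread, Ctnnb1 overlaps, and in Dkk2 and Fzd6 L1CAM replicate 1 lies with the control arrays.

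Of the secreted inhibitors, Notum alone passed the test, and Dkk2 showed the widest spread of all members. The Dickkopf proteins DKK1 and DKK2 act on LRP5 and LRP6. Dkk2 read 9.64, 9.96 and 9.90 in control cells and 9.83, 8.37 and 8.25 in L1CAM cells. L1CAM replicate 1 lay inside the control range, while replicates 2 and 3 lay 1.47 and 1.59 below the control mean. The difference of -1.02 (SE 0.38) did not pass (adjusted p = 0.116). Without L1CAM replicate 1 it was -1.53 and passed (adjusted p = 3.68e-05). The cell cycle genes had their smallest shift on the same array, and the part of that in this result was not tested.

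Notum, an enzyme that removes the lipid of Wnt proteins, read 6.19, 6.13 and 6.19 in control and 6.38, 6.35 and 6.42 in L1CAM cells. The groups did not overlap, but all 6 arrays lay below the array medians, so the gene was not shown to be above background. The difference was 0.21 (SE 0.05, adjusted p = 0.0355). The call held without L1CAM replicate 1 (adjusted p = 0.0304) and was lost without control replicate 1 (0.084), control replicate 2 (0.134), control replicate 3 (0.0989), either L1CAM replicate 2 (0.0812) or the third L1CAM array (0.13), and with a further quantile normalization (0.0521). Dkk1, Dkk3 and Sfrp1 lay below the medians on all arrays. Their differences were -0.03 for Dkk1 (95% confidence interval -0.17 to 0.10), -0.08 for Dkk3 (-0.25 to 0.10) and 0.05 for Sfrp1, a decoy receptor that binds Wnt (-0.09 to 0.18).

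Genes that set the turnover of Frizzled showed 0 calls among 3, and 0 with an unadjusted p under 0.05. Znrf3, a ubiquitin ligase that removes Frizzled from the surface, had a difference of -0.08 (95% confidence interval -0.22 to 0.07). Its relative Rnf43 lay below the array medians, with 0.01 (-0.16 to 0.18). Lgr4, a receptor for R-spondins, which block these ligases, read 6.70, 6.77 and 6.74 in control and 6.63, 6.94 and 6.71 in L1CAM cells, with a difference of 0.02 (-0.18 to 0.21).

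The number of members that passed moved with every array left out. Without L1CAM replicate 1, 14 members were called, 11 lower and 3 higher, against 24.8% of all genes. The 9 members called with all arrays were among them, joined by Wnt9b, Fzd1, Fzd6 and Dkk2 as lower and Fzd5 as higher. In 6 of the 9 members called with all arrays L1CAM replicate 1 was the L1CAM array nearest to the control mean, and so it was in 71.2% of all 2999 called genes. The exceptions were Wnt5a, Lrp6 and Notum, in which L1CAM replicate 2 lay nearest. Without control replicate 2 or control replicate 3, 4 members were called, Wnt5a, Fzd7, Lrp5 and Lrp6, against 5.18% and 5.34% of all genes. Leaving out L1CAM replicate 3 left 5 (6.21% of all genes), control replicate 1 left 6 (9.07%) and L1CAM replicate 2 left 7 (6.85%). With all arrays the share of all genes was 15.0%.

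**Figure D3:**
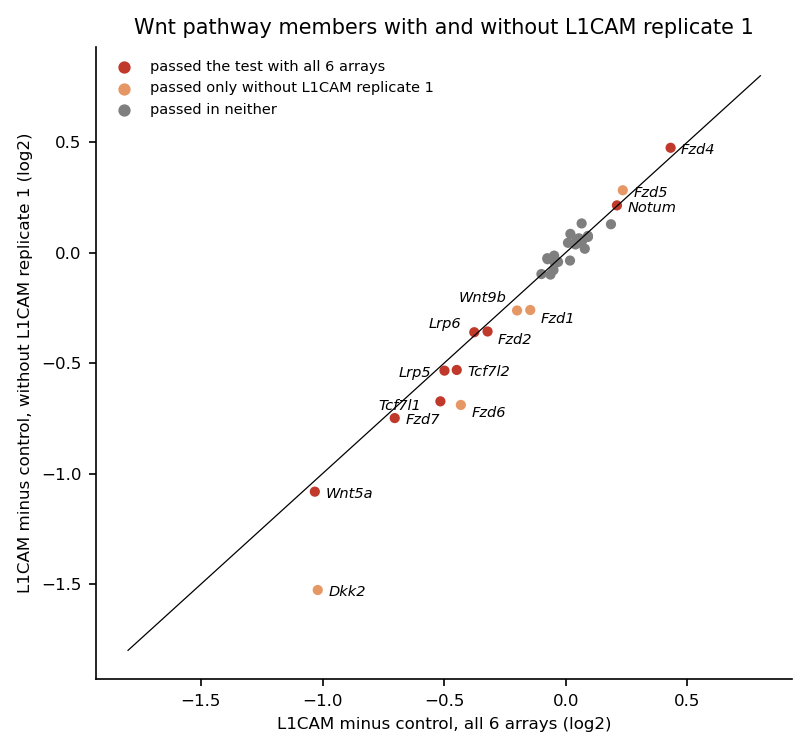
Each point is a Wnt pathway member, with its L1CAM minus control difference (log2) from all 6 arrays on the horizontal axis and without L1CAM replicate 1 on the vertical axis. The line marks equal values. Dkk2 lies farthest from it, at -1.02 and -1.53.

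The wider pathway was described with a further list of 192 genes, of which 185 were measured. It was chosen by name, with earlier results of these data known. It holds L1cam itself, a reported beta-catenin target, which is also the transfected gene. Without L1cam, 39 of 184 genes passed, 13 higher and 26 lower, or 21.2%, with a median difference of 0.04. Over all genes 15.0% passed, 6.85% as higher and 8.19% as lower, with a median difference of 0.02. With dim probe sets left out, 46 of the 126 list genes kept, L1cam included, passed, against 30.0% of all genes kept. Whether the list differs from genes of similar signal was not tested. The count for the 185 was 40 with all arrays and 62 without L1CAM replicate 1, where 24.8% of all genes were called. Leaving out a control array gave 25 for replicate 1 (9.07% of all genes) and 16 for replicate 2 or 3 (5.18% and 5.34%). Leaving out L1CAM replicate 2 gave 23 (6.85% of all genes), and L1CAM replicate 3 gave 19 (6.21%). A total of 15 of the 40, L1cam among them, were called whichever array was left out.

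Among 16 other ligands and genes of Wnt secretion (6.25% called, against 15.0% of all genes) 1 passed. This was Wls, the carrier that takes Wnt proteins to the cell surface, which read 11.32, 11.23 and 11.15 in control and 10.94, 10.80 and 10.80 in L1CAM cells. The groups did not overlap, and the difference was -0.39 (SE 0.07, adjusted p = 0.0115). The call was lost without control replicate 2 (adjusted p = 0.0552) or L1CAM replicate 3 (0.0527). Wls was named after its value was seen, as were Fzd9, Reck, Tspan12, Smo, Sdc1 and Kremen1.

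Of 13 other receptors and parts of receptor complexes 5 fell and 1 rose. Their share called was 46.2%, against 15.0% of all genes (8.19% lower and 6.85% higher). Ptk7, a receptor of the planar polarity branch, read 8.15, 8.01 and 8.14 in control and 7.40, 7.44 and 7.38 in L1CAM cells. Its L1CAM arrays lay together and well below the controls, with a difference of -0.69 (SE 0.06, adjusted p = 0.000726). The receptor that rose was Fzd9, of the Fzd4 subgroup. It read 8.37, 8.34 and 8.34 in control and 8.78, 9.01 and 9.02 in L1CAM cells, a difference of 0.59 (adjusted p = 0.00344). Tspan12, the tetraspanin that assists Norrin at FZD4, fell by 0.41 (adjusted p = 0.00733), and Reck, which recognises WNT7 at the surface of endothelial cells, fell by 0.42 (adjusted p = 0.00489). These 4 calls held whichever array was left out. The remaining calls were falls of Smo (-0.25) and Sdc1 (-0.23), each called in 1 of the 6 fits with an array left out, Smo in that without L1CAM replicate 1 and Sdc1 in that without L1CAM replicate 2.

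Of 21 other inhibitors and R-spondin genes (9.52% called, against 15.0% of all genes) 2 fell and 0 rose. They were Tmem131l, reported to promote loss of LRP6, with a difference of -0.66 (adjusted p = 0.00154), and Kremen1, a receptor for Dickkopf proteins, with -0.27 (adjusted p = 0.0303). Of 35 genes of the destruction complex and cytoplasmic relay (17.1% called) 5 fell and 1 rose. Cxxc5, which binds Dishevelled, fell most, from 9.47, 9.50 and 9.44 to 8.75, 8.64 and 8.55 (difference -0.83, adjusted p = 0.000536). The groups were far apart beside their spread. Cxxc5 and Tmem131l were called whichever array was left out, and Kremen1 was called in 1 of these 6 fits, that without L1CAM replicate 1.

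Of 36 genes of the planar polarity and calcium branches 5 fell and 4 rose. Vangl2, a core polarity protein of the membrane, read 8.73, 8.81 and 8.86 in control and 8.17, 8.02 and 7.73 in L1CAM cells. Every L1CAM array lay below every control array, with a difference of -0.82 (SE 0.11, adjusted p = 0.00366). Prickle2, its cytoplasmic partner, read 9.36, 9.42 and 9.34 in control and 8.84, 7.68 and 7.65 in L1CAM cells. L1CAM replicate 1 lay nearer to the controls than to the other L1CAM arrays, and the difference was -1.31 (SE 0.29, adjusted p = 0.0226). It was -1.70 without L1CAM replicate 1 (adjusted p = 6.31e-06), and the call was lost without control replicate 1 (0.0668), control replicate 2 (0.0884), control replicate 3 (0.0826), either L1CAM replicate 2 (0.0803) or the third L1CAM array (0.0797). Prickle3 had a difference of -0.65 (adjusted p = 0.0122), with the call lost without control replicate 2 (0.0569), control replicate 3 (0.0587) or L1CAM replicate 3 (0.0512). Plcb1, a phospholipase of calcium signalling, rose by 0.63 (adjusted p = 0.00196). Vangl2 and Plcb1 were called in all 6 fits with an array left out.

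Of 24 nuclear cofactors 2 rose and 4 fell. Of 44 reported beta-catenin targets 7 rose, L1cam among them, and 4 fell, and the list's median difference was 0.07. Sox17, an endothelial transcription factor on both lists, read 7.48, 7.15 and 7.31 in control and 8.87, 8.09 and 8.21 in L1CAM cells. Here L1CAM replicate 1 was the highest array, and the difference was 1.08 (SE 0.19, adjusted p = 0.0113). The call was lost without control replicate 2 (adjusted p = 0.0575) or control replicate 3 (0.0545). The other targets with the largest rises were Gja1, a gap junction protein (1.22), Cd44, a hyaluronan receptor (1.11), the matricellular genes Ccn2 (0.87) and Ccn1 (0.67), and Tfrc, the transferrin receptor (0.67). Tfrc lost its call without control replicate 2 (adjusted p = 0.0956), control replicate 3 (0.0952), either L1CAM replicate 2 (0.0827) or the third L1CAM array (0.0793).

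Of the targets that fell, Ccn4, named for its induction by Wnt1, read 8.70, 8.46 and 8.49 in control and 7.88, 7.80 and 7.74 in L1CAM cells. The difference was -0.74 (adjusted p = 0.00158), and the call held whichever array was left out. Birc5, an inhibitor of apoptosis that is also on the cell cycle list, read 7.99, 8.35 and 8.31 in control and 7.68, 6.60 and 6.60 in L1CAM cells. L1CAM replicate 1 again lay nearest to the controls. The difference of -1.25 (adjusted p = 0.0242) lost its call in 5 of the 6 fits that left out an array, those without control replicate 1 (0.0504), control replicate 2 (0.0975), control replicate 3 (0.0953), also L1CAM replicate 2 (0.0852) and the third L1CAM array (0.0868). It was -1.62 without L1CAM replicate 1 (adjusted p = 3.83e-05).

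**Figure D4:**
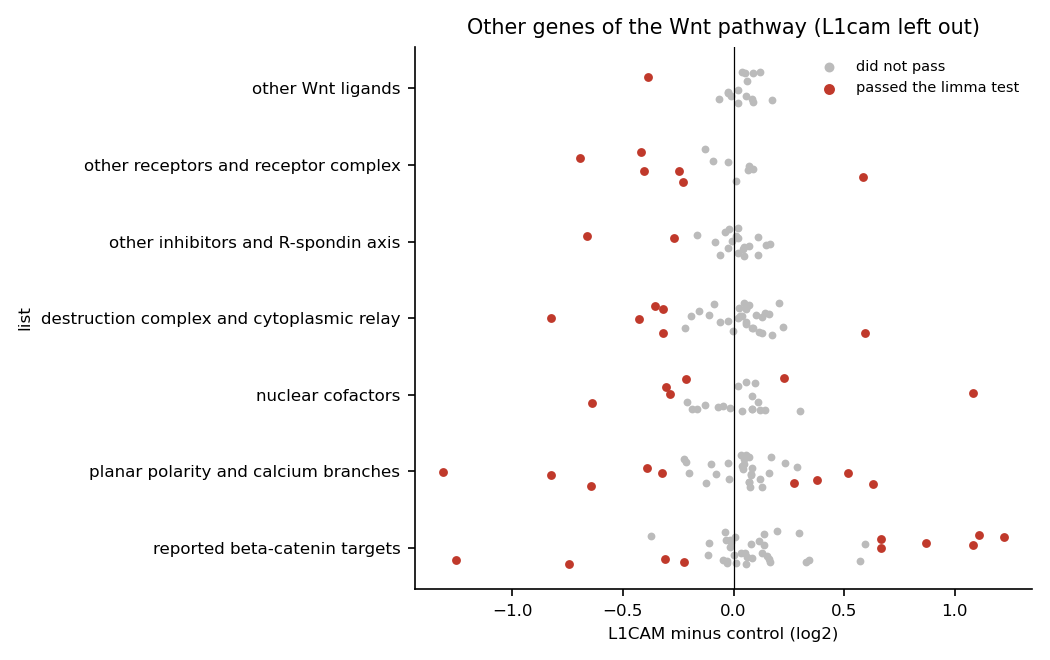
Each point is a gene of a further Wnt pathway list, with its L1CAM minus control difference (log2) on the horizontal axis and red for the genes that passed the limma test (L1cam left out; genes on 2 lists are shown on both). Receptor genes that passed lie mostly to the left, 5 of 6, and reported targets that passed lie on both sides. Over all genes 15.0% passed, 8.19% as lower and 6.85% as higher.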

How the data were processed

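Total RNA of the 6 cultures was labelled and hybridised to 1-colour Affymetrix arrays. The deposited values are log2 expression per probe set, which the authors computed by RMA (Expression Console 1.1, as named in the submitters' processing notes). The genome build is not given in the sources used here. Scanner files, detection calls and hybridisation dates were not used here, so no batch was tested. The precision rests on 3 arrays per group and the spread between them.

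Of 35512 probe sets, 21789 had 1 gene symbol in the platform annotation (1621 had several, 12102 had no entry), and the one with the highest mean per gene was kept, giving 19938 genes. Symbols were compared with RefSeq through Entrez identifiers, and 0 changed. The groups were compared with lmFit and eBayes of limma 3.58.1 (R 4.3.3), two-sided, group as the only term, with Benjamini-Hochberg adjustment over all genes and a threshold of 0.05. In simulated data of this comparison over 19938 genes, 74% of genes changed by 0.5 were recovered and 90% of those changed by 1. Values were drawn independently, with equal spread in both groups and 50 genes changed per size. The simulation lacks the shared deviation of L1CAM replicate 1 and has fewer changed genes than were called here. Its percentages may therefore not hold for these data. Tables used Python 3.11.15 and pandas 2.3.3.

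The members and lists were chosen with earlier results of these data known. The rule for named genes took all members, L1cam, and the 8 largest rises and 8 largest falls among called genes of the further pathway lists. Genes named outside it are given as such in the text. Sequences came from a RefSeq promoter table (GRCm38.p6). The 15 alternatives are given in the closing section. The limma p-values set the group difference against the spread between these cultures, moderated over all genes. They do not cover variation between transfectants.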

Additional observations from a re-analysis of the deposited data

How the results depend on the processing

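With all arrays 9 members were called, 2 higher and 7 lower, with 40 other pathway genes and 2999 of all genes. An ordinary linear model called 2 members (0 higher, 2 lower: Fzd7 and Lrp6), 8 other pathway genes and 581 of all genes. A test against a difference of 0.5 (treat) called 0 members (0 higher and 0 lower, 9 by the main limma test). It called 1 other pathway gene, the transfected L1cam, and 152 of all genes. Array weights called 13 members (Dkk2, Fzd5, Fzd6 and Wnt9b added) and 5191 of all genes. With the replicate block 8 members were called, 1 higher and 7 lower (Notum was lost), and 2067 of all genes. Same-numbered arrays deviated from their group means with correlations of -0.10, -0.10 and -0.03, so they were not treated as pairs. Leaving out 1 array gave 4 to 14 members (0 to 3 higher, 4 to 11 lower), 16 to 62 other pathway genes and 1033 to 4952 of all genes. Both normalizations, leaving out dim probe sets, averaging the probe sets of a gene and a trend in the prior gave 9 or 10 members. None of the 9 called members changed direction.

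Signs changed for 7 uncalled members, whose ranges over the fits with 1 array left out were -0.098 to 0.016 for Wnt2, -0.026 to 0.102 for Wnt5b, -0.065 to 0.133 for Fzd3, -0.036 to 0.078 for Dvl2, -0.056 to 0.004 for Dkk1, -0.071 to 0.084 for Lgr4 and -0.040 to 0.067 for Rnf43. Dvl2 was -0.005 with array weights, and Rnf43 was -0.014 with a further quantile normalization. The causes were not tested. With 3 arrays per group and no detection calls, differences of members below the array medians are not exact.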
